A study of Mus musculus with 6 samples.

Results

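The genes described here encode the signalling part of the B-cell antigen receptor and the proteins that act directly beneath it. They were chosen as a fixed list of 37 symbols, and 35 of these were matched on the array, each read by its brightest probe set, out of 18193 genes measured in the same way. Lyn and Itpr1 were matched to no probe set of exactly 1 gene symbol and were not analysed here. The cells were germinal centre B cells of the spleen, purified on magnetic beads after immunisation with sheep erythrocytes. The control group was ImHABCL6 (3 arrays), mice that express an HA-tagged BCL6, the transcriptional repressor that defines germinal centre B cells, from an immunoglobulin heavy-chain promoter. The other group was ImHABCL6/Uchl1 (3 arrays), which carried the same BCL6 allele together with transgenic Uchl1, an enzyme that removes ubiquitin. The sources used here do not give the age and strain of the mice or the promoter of the Uchl1 transgene. The question put to these cells was what transgenic Uchl1 does to their gene expression, here in the antigen receptor pathway.

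The antigen receptor of B cells is a membrane immunoglobulin bound to CD79A and CD79B, whose cytoplasmic tails carry tyrosine motifs. Kinases of the SRC family phosphorylate these motifs, SYK docks on them, and the adaptor BLNK then brings BTK to phospholipase C gamma 2. The lipase releases calcium through inositol trisphosphate and activates protein kinase C and RAS exchange factors, which lead to NFAT, NF-kappaB and MAP kinase. Germinal centre B cells are known to keep this signal low, through phosphatases and inhibitory receptors such as CD22 and CD72.

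Values are log2 expression levels, so that a difference of 1 is a doubling, and differences are ImHABCL6/Uchl1 minus control. Array medians over all probe sets lay between 5.56 and 5.67. All values of Uchl1 on the control arrays (at most 5.02) lay below those on the ImHABCL6/Uchl1 arrays (5.87 to 6.02), in the direction of the labels, at a limma adjusted p of 0.638. Germinal centre markers were well detected, for example S1pr2, a lipid receptor gene that holds cells in the germinal centre, at 10.39 to 11.16 and Rgs13, a regulator of G-protein signalling, at 11.14 to 12.19. T-cell markers were low on average, with means of 5.48 to 5.76 over 11 genes, although Zap70 read 8.55 to 9.34. Erythroid markers were not: their mean over 13 of 17 listed genes ran from 10.61 to 11.53 in the controls and from 9.05 to 10.96 in the ImHABCL6/Uchl1 arrays, although the probe set of the globin gene Hba-a1 stayed at 3.89 to 4.41. Megakaryocyte and platelet markers had means of 7.57 to 8.96 over 5 genes. In bulk RNA of this kind, fewer cells of a type and less RNA per cell cannot be told apart.

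No gene of the receptor complex or of its proximal signalling passed the test between genotypes. Of the 35 genes, 0 had a limma adjusted p under 0.05 over all genes, where the share called among all genes was 0%, and the smallest adjusted p was 0.983. At an unadjusted p under 0.05 there were 2, the ubiquitin ligase gene Cblb above the controls and the adaptor gene Shc1 below them, against 4.94% of all genes (1.09% above and 3.85% below). The same 2 genes were the ones whose groups did not overlap, which held for 9.44% of all genes. Differences ran from -0.33 to 0.34, none reached 1.5-fold, and the median was 0.06 beside 0 over all genes. The signs leaned upward, with 26 genes above 0 and 9 below, or 74.3% above 0 against 50.6% of all genes.

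That lean came with a single array. In ImHABCL6/Uchl1 replicate 1, 32 of the 35 genes lay above their own mean over the arrays and 26 had their highest level, or 74.3%, where 22.6% of all genes did. On the other 5 arrays between 0 and 4 of the genes were at their highest. Without that array 12 of 35 genes lay above 0, with a median difference of -0.07, while 48.1% of all genes lay above 0. The remaining ImHABCL6/Uchl1 arrays held the lowest level of many of the genes, 13 in replicate 2 and 9 in replicate 3.

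**Figure D1:**
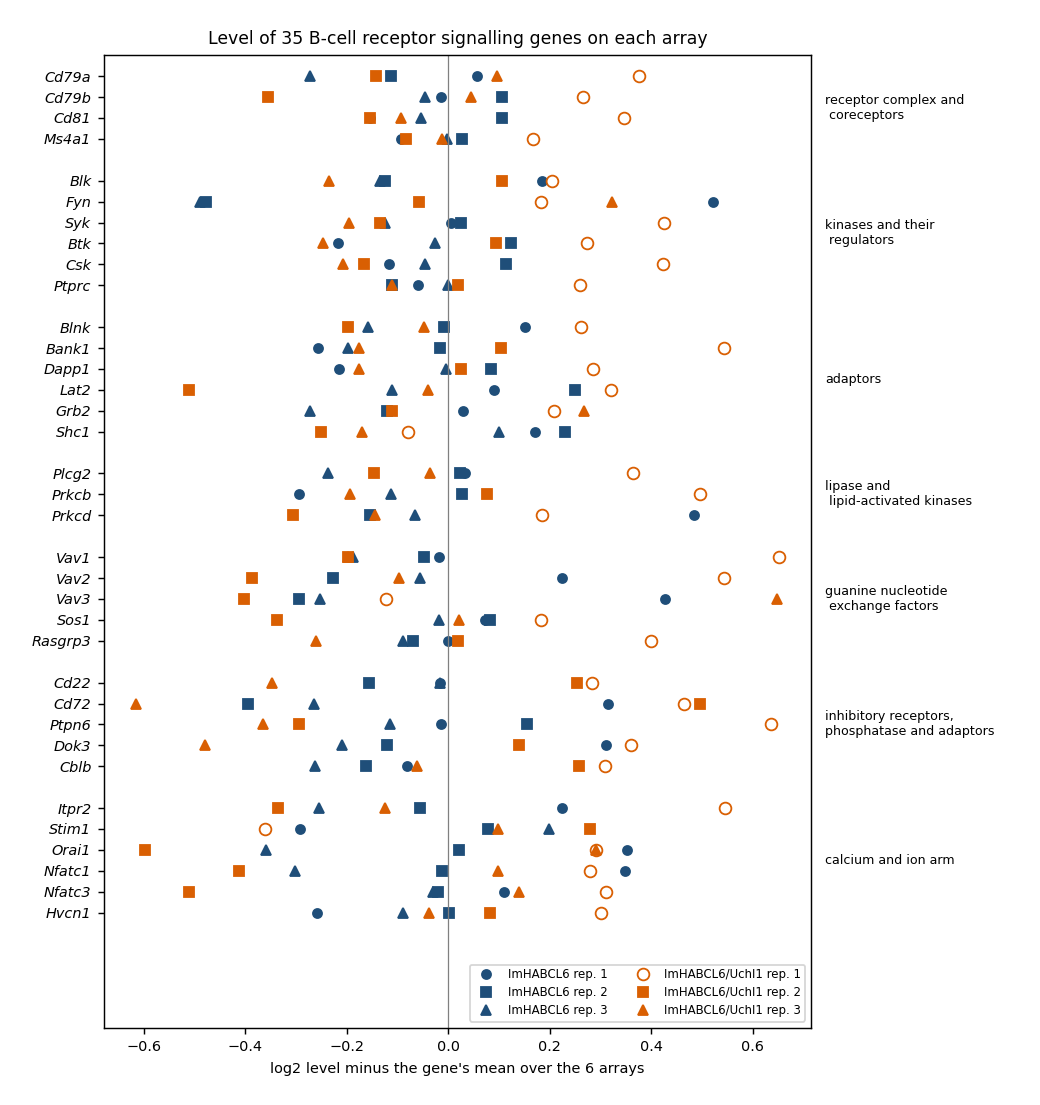
Level of each of the 35 genes on each array, as log2 level minus the gene's own mean over the 6 arrays (horizontal axis), with control arrays in blue, ImHABCL6/Uchl1 arrays in orange and genes grouped by role. The open circles of ImHABCL6/Uchl1 replicate 1 lie furthest right for 26 genes.

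Means of cell type markers also differed on the same array. Replicate 1 of ImHABCL6/Uchl1 had the lowest erythroid mean, 9.05, and the highest mean of 9 germinal centre B-cell markers, 11.60, where the controls lay at 11.26 to 11.28 and the other ImHABCL6/Uchl1 arrays at 11.06 and 11.10. Of those 9 markers Mki67 and Basp1 were not highest on replicate 1, and Mki67 read 13.47 there against 13.58 to 14.01 in the controls. The mean of 8 markers of all B cells was also the highest on replicate 1, at 11.75. The mean of that list lay higher on every ImHABCL6/Uchl1 array (11.51 to 11.75) than on every control (11.31 to 11.47). The same held for the mean of 6 markers of follicular B cells, at 7.46 to 7.72 against 7.18 to 7.36 in the controls. Gene by gene, groups were apart for Pax5, Ebf1 and Cd37, and for Fcer2a and Ccr7 of the follicular list. They overlapped for the other genes of both lists, and Cd24a differed by -0.15. The mean of the 35 receptor genes was 10.52 in replicate 1 of ImHABCL6/Uchl1 and 10.09 to 10.28 on the other arrays. The erythroid mean of each other array is given here with the number of receptor genes above their own mean. Control replicates 1, 2 and 3 had 10.61 with 20 genes, 11.09 with 16 and 11.53 with 2. ImHABCL6/Uchl1 replicate 2 had 10.96 with 13 genes, and replicate 3 had 10.36 with 10. With the erythroid mean as a covariate, 11 of 35 genes lay above 0, the median was -0.12 and no limma adjusted p was under 0.05. Over all genes 47.1% lay above 0 in that fit, with a median of -0.02. The erythroid mean tended to be lower in ImHABCL6/Uchl1, so with 3 arrays per group the fit cannot separate it from genotype. The part of these cells in the level of the receptor genes was not tested.

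**Figure D2:**
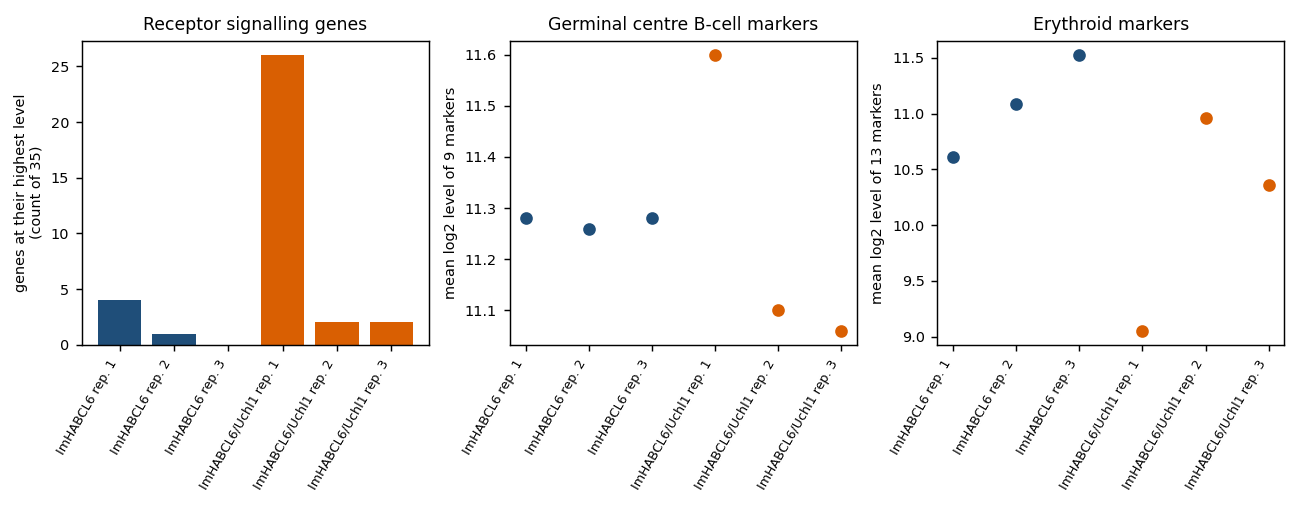
Left, number of the 35 receptor signalling genes that have their highest level on each array. Middle and right, mean log2 level of 9 germinal centre B-cell markers and of 13 erythroid markers on each array; ImHABCL6/Uchl1 replicate 1 holds 26 of the 35 maxima, the highest germinal centre mean (11.60) and the lowest erythroid mean (9.05).

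Promoter sequence was looked at as a feature that the choice of genes had not used. RefSeq promoter windows of GRCm38.p6, 250 bases before to 50 after the start site, were matched for 29 of the 35 genes. The octamer, the site ATGCAAAT bound by the factors OCT1 and OCT2 with a B-cell coactivator, was searched on both strands. It was found in the windows of 3 genes, which is 10.3% of 29, and in 1.97% of all 27025 genes with a window. The 3 stretches are shown 5′ to 3′ on the strand of the gene, with the octamer in capitals, because they are the sites that these genes share.
Blnk: tactggaagggATTTGCATgcccaataagg
Prkcb: gcctgggtttcATGCAAATgagggaggcgg
Orai1: gggtgtggcgtATGCAAATaacctcgggtc
They lie at chr19:40994333-40994362 (minus strand), chr7:122289044-122289073 (plus strand) and chr5:123014973-123015002 (plus strand), with the octamer centred at -126, -66 and -86 bases from the start site, and in Blnk the octamer runs against the gene. The 3 genes did not share a difference: Blnk was at 0.01, Prkcb at 0.25 and Orai1 at -0.01. Searched in the same way, the BCL6 site TTCCTAGAA was found in 0 of the 29 genes (0.474% of all genes) and the ETS site CCGGAAGT in Shc1 only (4.31% of all genes). A match of letters is a description of the window and not a measured binding site.

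Of the receptor complex, 3 genes lay above 0 and 1 below, and none passed the test. Cd79a, a signal-transducing chain, read 9.42, 9.25 and 9.09 in control mice, against 9.74, 9.22 and 9.46 with the transgene. Replicate 1 was the highest array, and replicate 2 lay within the controls. The difference was 0.22 (SE 0.17, 95% interval -0.17 to 0.62, limma adjusted p = 0.998), and it was 0.09 without replicate 1 and 0.35 without replicate 2 of ImHABCL6/Uchl1.

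Cd79b, its partner chain, read 12.67, 12.79 and 12.64 in control mice, against 12.95, 12.33 and 12.73 with the transgene. The transgenic arrays thus held both the highest and the lowest value, with controls between them. The difference was -0.03 (SE 0.18, 95% interval -0.43 to 0.38), and without replicate 1 it was -0.17. Cd81, a tetraspanin of the cell surface, read 11.01, 11.27 and 11.11 against 11.51, 11.01 and 11.07, and only replicate 1 stood above the controls. Ms4a1, which encodes the surface protein CD20, stayed within 13.62 to 13.88 on all 6 arrays.

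Among the kinases and the enzymes that set their activity, all 6 measured genes had differences above 0, from 0.03 to 0.30, and none passed the test. Syk, the kinase that docks on the receptor, read 10.62, 10.64 and 10.49 in control mice, against 11.04, 10.48 and 10.42 with the transgene. Replicate 1 was above every control, and the other transgenic arrays were below every control. The difference was 0.06 (SE 0.19), and -0.14 without replicate 1. Btk, which activates the lipase, read 10.40, 10.74 and 10.59 against 10.89, 10.71 and 10.37, a difference of 0.08 (SE 0.17) that became -0.03 without replicate 1.

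The SRC-family kinases that start the cascade were measured as Blk and Fyn, and Lyn was not analysed here. Blk, which is largely restricted to B cells, differed by 0.05 (SE 0.17). Fyn, which T cells use as well, was among the most variable genes of the list, at 9.74, 8.74 and 8.73 in control mice, against 9.40, 9.16 and 9.54 with the transgene. Control replicate 1 was the highest of the 6, and the other controls were the lowest. The difference was 0.30 (SE 0.28), and 0.64 without control replicate 1. That control array also had the highest mean of 7 neutrophil markers, 6.49 against 5.21 to 5.54 elsewhere. Its mean of 8 plasma-cell markers was highest too, 9.34 against 9.02 to 9.30. The same held for the mean of 18 receptor-induced target genes, 8.81 against 8.12 to 8.71. Of the plasma-cell markers Prdm1, Irf4 and Derl3 were highest on that array, while Sdc1, Jchain and Tnfrsf17 were lowest there. Xbp1 and Mzb1 were neither. Irf4 is on both lists, and not every target was highest there, since Cd86 was lowest. The part of any of these was not tested. The T-cell mean there was 5.62, inside the range of the other arrays.

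Csk, the kinase that holds SRC-family kinases inactive, and Ptprc, the phosphatase CD45 that releases them, did not pass either. Csk differed by 0.03 (SE 0.19), with 11.45 in replicate 1 and 10.82 to 11.14 elsewhere. The brightest Ptprc probe set read 13.26, 13.21 and 13.32 in control mice, against 13.58, 13.34 and 13.21 with the transgene, a difference of 0.12 (SE 0.14).

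Of the adaptors, Shc1 was the gene of smallest p. Shc1 links receptors to the RAS pathway through GRB2. It read 7.99, 8.05 and 7.92 in control mice, against 7.74, 7.57 and 7.65 with the transgene, or 7.99 ± 0.06 against 7.66 ± 0.09 (SD, n = 3 each). Each transgenic array lay below each control, and replicate 1 did so with the others. The difference was -0.33 (SE 0.12, 95% interval -0.62 to -0.04), or 1.26-fold, with a limma p of 0.0289 unadjusted and 0.983 adjusted and an exact two-sided permutation p of 0.1, the smallest possible with 3 arrays against 3. Shc1 stayed between -0.37 and -0.29 when any single array was left out. Its other probe set read 5.77 to 6.11 in the controls and 5.79 to 6.10 in the ImHABCL6/Uchl1 arrays, so that the groups overlapped there, and the mean of both probe sets differed by -0.13.

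Bank1, a scaffold that links receptor kinases to calcium channels, read 10.97, 11.21 and 11.03 in control mice, against 11.77, 11.33 and 11.05 with the transgene. Its highest arrays were transgenic, but replicate 3 lay within the controls. The difference was 0.31 (SE 0.19, 95% interval -0.13 to 0.76), and 0.12 without replicate 1. Grb2, the adaptor to the RAS exchange factor SOS1, differed by 0.24 (SE 0.16), Dapp1, which binds lipid products of PI3-kinase, by 0.09, Blnk by 0.01 and Lat2, a membrane adaptor, by -0.16. For Grb2 the probe sets disagreed, since its other probe set differed by -0.14 (SE 0.22).

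Plcg2, the lipase at the centre of the cascade, differed by 0.12 (SE 0.17), with 12.04 in replicate 1 and 11.44 to 11.71 on the other arrays. Prkcb, the protein kinase C isoform that leads to NF-kappaB in B cells, read 10.95, 11.27 and 11.13 in control mice, against 11.74, 11.32 and 11.05 with the transgene. Both the difference (0.25, SE 0.20) and its size without replicate 1 (0.07) were within the spread between arrays. Prkcd, an isoform that restrains B-cell activation, read 10.73, 10.09 and 10.18 against 10.43, 9.94 and 10.10, a difference of -0.17 (SE 0.21). Control replicate 1 was its highest array, and without that array the difference was 0.02. A second Prkcd probe set differed by 0.24 (SE 0.22).

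The exchange factors load RAC and RAS GTPases, and 4 of 5 lay above 0 with none past the test. Vav1 read 8.65, 8.62 and 8.48 in control mice, against 9.32, 8.47 and 8.47 with the transgene. A single transgenic array therefore carried the difference of 0.17 (SE 0.24), which was -0.11 without it. Rasgrp3, the RAS exchange factor activated by diacylglycerol in B cells, read 11.03, 10.96 and 10.94 against 11.43, 11.05 and 10.77, a difference of 0.11 (SE 0.18) that became -0.07.

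The other exchange factors gave no common direction. Vav2 differed by 0.04 (SE 0.24) and Sos1 by -0.09 (SE 0.16). Vav3, whose mean level of 5.80 was close to the limit for dim probe sets (5.61, the median of all probe sets), differed by 0.08 (SE 0.30), with 6.22 in control replicate 1 and 6.44 in ImHABCL6/Uchl1 replicate 3 and 5.39 to 5.67 elsewhere. The latter array also had the highest mean of 10 macrophage and monocyte markers, 5.79 against 5.10 to 5.33. The largest gaps were in the lysozyme gene Lyz2, at 10.55 against 7.30 to 8.89, and Csf1r, at 8.11 against 6.46 to 6.84. Vcam1 (6.11) and Itgam (4.18) were slightly above the other arrays. C1qa, C1qb, C1qc, Adgre1, Cd14 and Cd68 lay within the range of the other arrays. The part of those cells in the Vav3 level was not tested.

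Of the inhibitory genes, Cblb was the gene whose groups were apart. Cblb encodes a ubiquitin ligase that marks signalling proteins for removal and dampens antigen receptors. It read 9.35, 9.27 and 9.17 in control mice, against 9.74, 9.69 and 9.37 with the transgene, or 9.26 ± 0.09 against 9.60 ± 0.20 (SD, n = 3 each). The lowest transgenic array lay just above the highest control. The difference was 0.34 (SE 0.15, 95% interval 0.00 to 0.68), or 1.27-fold, with a limma p of 0.0492 unadjusted and 0.998 adjusted and an exact two-sided permutation p of 0.1. It ran from 0.27 to 0.45 when any single array was left out, and was 0.18 with array weights and 0.25 with the erythroid covariate.

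Cd72, a receptor that recruits the phosphatase SHP-1, varied more within than between groups. It read 11.30, 10.59 and 10.72 in control mice, against 11.45, 11.48 and 10.37 with the transgene. Replicate 3 of the transgenic group was the lowest of the 6 arrays. The difference was 0.23 (SE 0.32), and 0.60 without that replicate. Cd22, the sialic acid receptor of the same kind, followed with 12.54, 12.51 and 11.91 in the transgenic arrays and 12.10 to 12.24 in the controls. Its difference of 0.13 (SE 0.19) was 0.33 without transgenic replicate 3, 0.02 without replicate 1 and 0.03 without replicate 2. Ptpn6, which encodes SHP-1 itself, read 12.05 in replicate 1 and 11.05 and 11.12 in the other transgenic arrays, with controls at 11.30 to 11.57 between them, so that its difference of -0.01 (SE 0.26) was -0.33 without replicate 1. Dok3, an adaptor of inhibitory signals, differed by 0.01 (SE 0.24).

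In the calcium arm, 3 of 6 measured genes lay above 0 and 3 below. Hvcn1, the proton channel that sustains oxidant production at the receptor, had the smallest p of this group. It read 10.93, 11.19 and 11.10 in control mice, against 11.49, 11.27 and 11.15 with the transgene. The transgenic arrays were on the high side, with replicate 3 inside the control range. The difference was 0.23 (SE 0.15, 95% interval -0.11 to 0.57), and 0.14 without replicate 1.

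Itpr2, a calcium release channel, read 8.73, 8.45 and 8.25 against 9.05, 8.17 and 8.38, a difference of 0.06 (SE 0.24) that became -0.20 without replicate 1. The store sensor Stim1 differed by 0.01, the calcium channel Orai1 by -0.01, and the transcription factors Nfatc1 by -0.02 and Nfatc3 by -0.05, with standard errors of 0.21 to 0.28. The intervals were wide on both sides of 0, and for Orai1 the 95% interval ran from -0.65 to 0.64. Stim1 was the 1 gene with its lowest level in replicate 1 (8.81), on a probe set whose suffix marks possible cross-hybridisation.

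**Figure D3:**
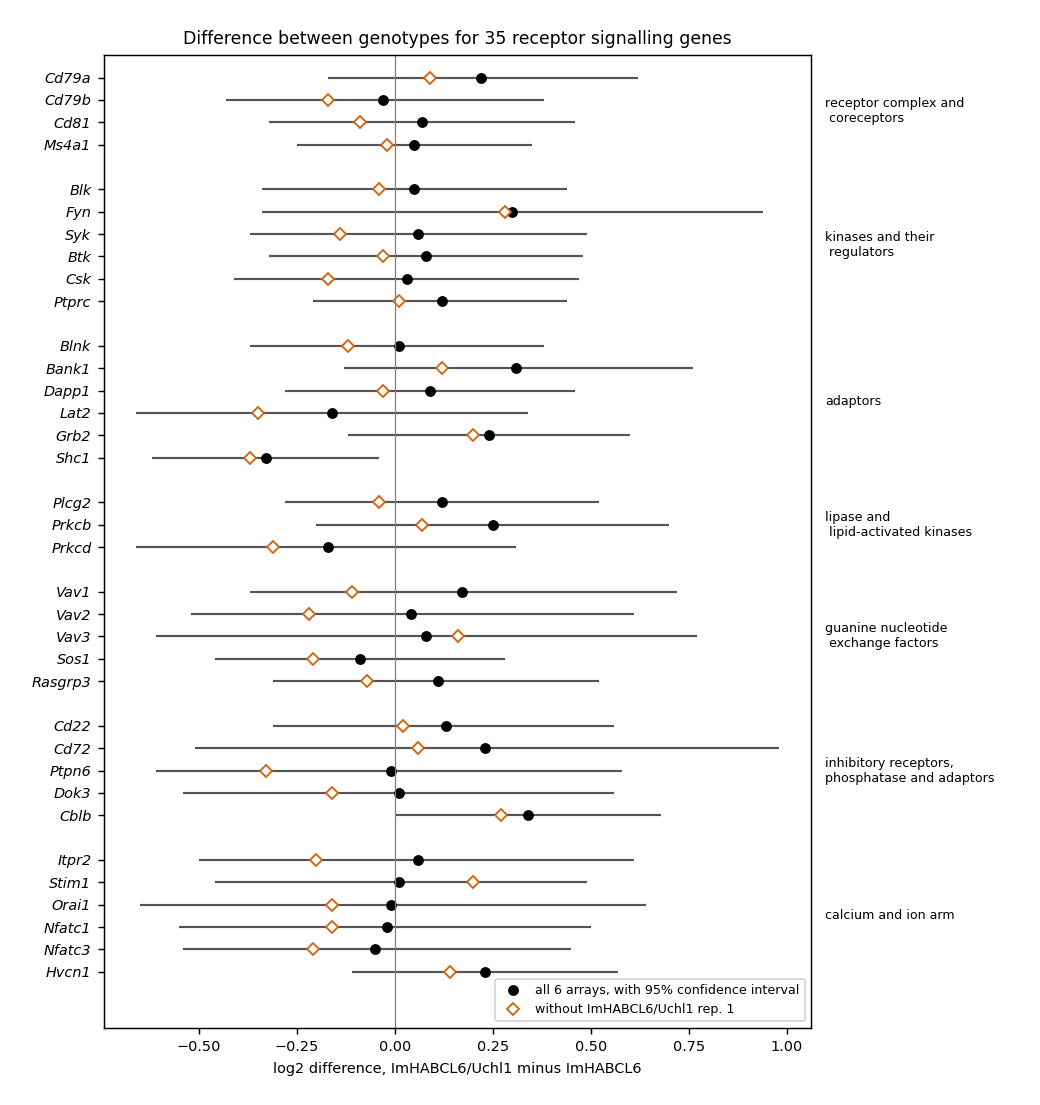
Log2 difference between ImHABCL6/Uchl1 and control for the 35 genes (black points) with limma's 95% confidence interval, and the same difference without ImHABCL6/Uchl1 replicate 1 (open diamonds). Shc1 (-0.33) and Cblb (0.34) keep their side of 0 without that array, and 12 of the 35 diamonds lie above 0.

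Further probe sets were present for 23 of the genes and gave 40 additional readings. Of these 29 lay above 0 and 11 below, and the share above 0 among additional probe sets of all genes is not given here. Of the 40 readings, 11 were dim (mean under 5.61). Some fell below 0 without ImHABCL6/Uchl1 replicate 1, such as Ms4a1 (0.07 to -0.10) and Cd22 (0.10 to -0.17), while others stayed above. The groups did not overlap in 7 of the 40, each time with the transgenic arrays higher, or 17.5%, and in 0 with them lower. Among the 16752 additional probe sets of all genes these shares were 4.89% higher and 4.73% lower. At an unadjusted limma p under 0.05 there were 4 higher and 0 lower, against 1.80% and 3.09% of the additional probe sets of all genes. The 4 belonged to Ptprc, Syk, Vav1 and Cblb. Of the 7 whose groups did not overlap, the Itpr2 reading was dim (mean 5.30).

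The Ptprc, Syk and Cblb readings were not led by replicate 1, and the Vav1 reading was. The second Ptprc probe set read 8.95, 8.41 and 9.08 in control mice, against 9.33, 9.27 and 9.54 with the transgene, a difference of 0.57 (SE 0.19), and 0.59 without replicate 1. A Syk probe set read 7.99, 7.37 and 7.88 against 8.19, 8.10 and 8.37, a difference of 0.47 (SE 0.18), and 0.49 without replicate 1. In both, replicate 3 was the highest array and control replicate 2 the lowest.

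The second Cblb probe set read 8.33, 8.07 and 8.80 in control mice, against 8.81, 9.03 and 8.94 with the transgene, a difference of 0.53 (SE 0.19). Control replicate 3 almost met the transgenic arrays. The third Cblb probe set, however, differed by 0.08 (SE 0.15). A second Vav1 probe set read 7.38, 7.20 and 7.20 against 7.92, 7.61 and 7.47, a difference of 0.41 (SE 0.15), and 0.28 without replicate 1. The brightest probe sets of Ptprc (0.12), Syk (0.06) and Vav1 (0.17) gave smaller differences with overlapping groups. The sources used here do not give the part of the transcript that each probe set reads. Probe sets agreed in sign for 10 of the 23 genes, all of them above 0, and gave both signs for 13. The share over all genes with several probe sets is not given here. Without ImHABCL6/Uchl1 replicate 1, only Fyn, Ptprc and Stim1 of the 10 kept all their probe sets above 0.

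**Figure D4:**
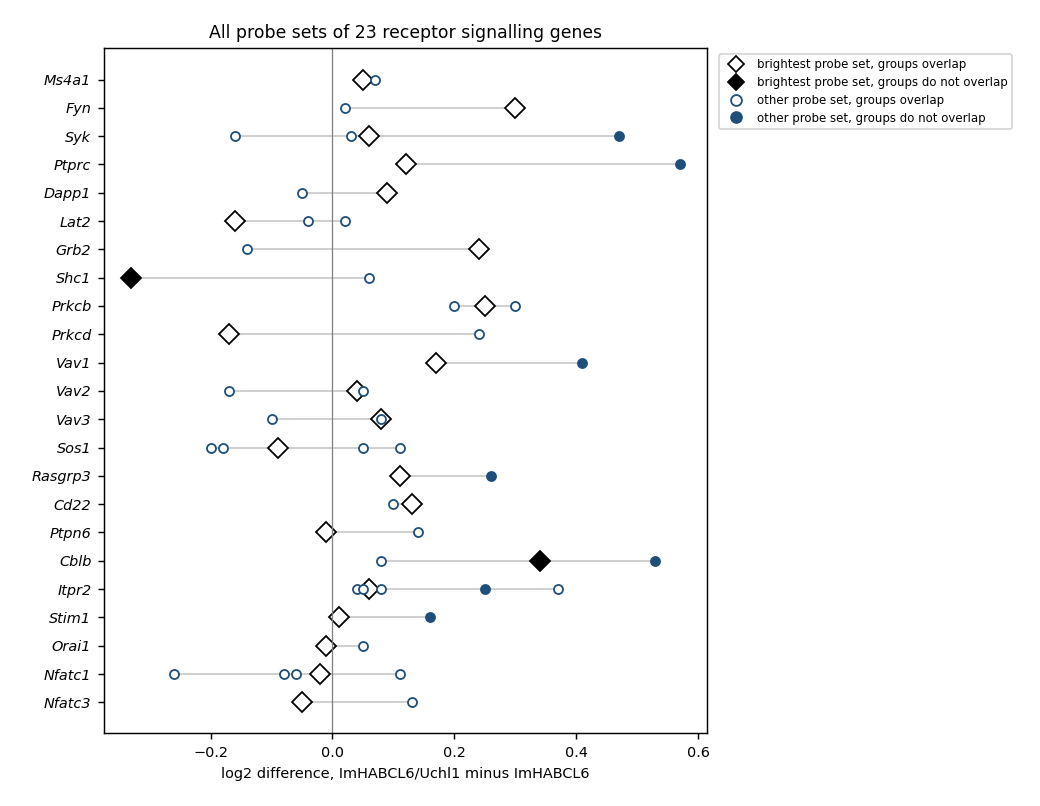
Log2 difference between ImHABCL6/Uchl1 and control for every probe set of the 23 genes that have more than 1. Diamonds are the brightest probe set, circles the others, and filled symbols those whose groups do not overlap: 7 circles are filled, all above 0.

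The rest of the pathway was read from a list of 92 genes, of which 73 were measured. None of the 73 had a limma adjusted p under 0.05, 2 had an unadjusted p under 0.05 and both were above the controls, where the share for higher genes was 1.09%. Of the 73, 44 lay above 0 and 29 below, with a median of 0.04. The groups did not overlap in 5 genes upward and 1 downward, where the shares were 3.95% and 5.49% of all genes.

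Among other proximal regulators (19 measured, 11 above 0, median 0.11), Pag1, the membrane adaptor that brings CSK to SRC-family kinases, read 10.59, 10.75 and 10.84 in control mice, against 11.43, 11.18 and 10.99 with the transgene. Each transgenic array exceeded each control. The difference was 0.47 (SE 0.16), or 1.39-fold, with a limma p of 0.0172 unadjusted and 0.983 adjusted. The complement receptor gene Cr2 differed by 0.62 (SE 0.28), with replicate 3 (10.14) inside the controls (9.99 to 10.39). The median of this list was -0.15 without replicate 1.

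In the NF-kappaB arm 8 of 9 genes lay above 0 (median 0.08, and 0.01 without replicate 1). The ubiquitin ligase gene Traf6 read 7.50, 7.42 and 7.25 in control mice, against 7.69, 7.66 and 7.85 with the transgene, apart from each other, with a difference of 0.34 (SE 0.13, limma adjusted p = 0.983). The protease and scaffold gene Malt1 differed by 0.35 (SE 0.20). In the calcineurin arm 5 of 5 genes lay above 0 (median 0.05), led by the catalytic subunit gene Ppp3ca at 0.33 (SE 0.16), with Nfatc2 at 0.12.

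The PI3-kinase arm (6 of 9 above 0, median 0.07) held Pik3cd at 0.22 and Rictor, a subunit of mTOR complex 2, at -0.30. The RAS and MAP kinase arm (5 of 10 above 0, median -0.01) held the stress kinase gene Mapk14 at -0.24 and Rac1 at 0.15. Neither list had a gene whose groups were apart.

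Immunoglobulin chains, the antigen-binding part of the receptor, were measured for 3 of 9 listed genes. Probe sets of this family can share sequence, so single genes are uncertain. Ighm, the mu heavy chain, stayed within 14.39 to 14.64 on all arrays, and Ighg3 differed by -0.12. Igha differed by -0.97 (SE 0.48), with 9.31 to 9.98 in control mice, against 9.62, 7.45 and 8.74 with the transgene, so that replicate 1 lay inside the controls.

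Genes that antigen receptor signals induce were split evenly. Of 18 measured targets, such as the early growth response genes Egr1, Egr2 and Egr3, 9 lay above 0 and 9 below, with a median of 0.01 and 0 whose groups were apart. Egr1 differed by 0.25 (SE 0.29), Egr2 by -0.25 (SE 0.32) and Egr3 by 0.25 (SE 0.30). The 2 genes of smallest p were Ier2 at -0.22 (SE 0.15) and the phosphatase gene Dusp2 at 0.21 (SE 0.17). Their mean level was 8.81, 8.34 and 8.29 in control mice, against 8.71, 8.12 and 8.67 with the transgene. Arrays of both genotypes were among the high and the low ones, and the order was not that of the receptor genes, since control replicate 1 was the highest.

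**Figure D5:**
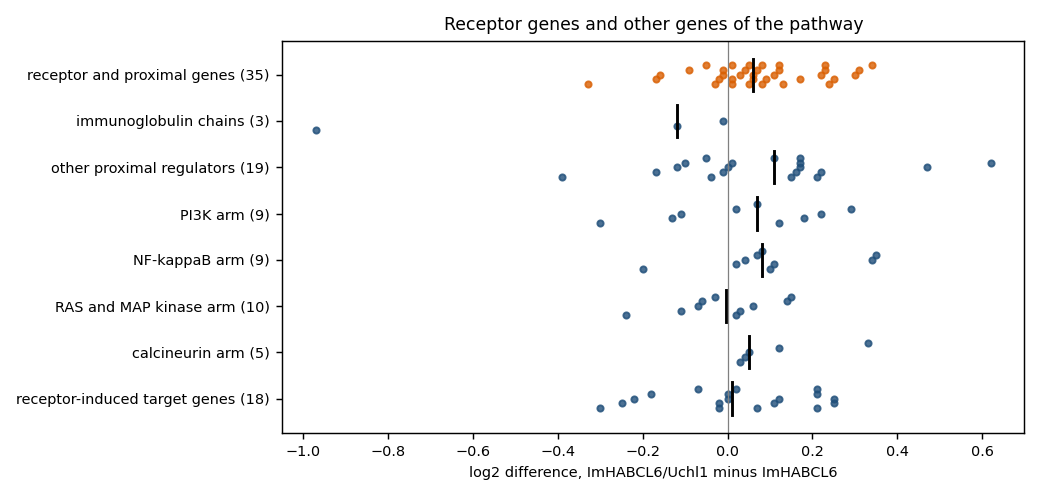
Log2 difference between ImHABCL6/Uchl1 and control for the 35 receptor and proximal genes (orange) and for the 73 other pathway genes by list (blue), with the number of genes in brackets; vertical bars are medians. Medians lie between -0.12 (immunoglobulin chains) and 0.11 (other proximal regulators).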

How the data were processed

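RNA of 6 mice, 3 per genotype in the design text, was labelled by Affymetrix's 3' IVT Express kit and read on mouse 430 2.0 arrays (labels). The authors deposited log2 levels; RMA and Partek are named in the submitters' processing notes, and no version or setting is given in the sources used here. RMA compresses differences of dim probe sets. Gene names came from GEO's platform annotation, checked by Entrez identifier: of 45101 probe sets 34945 had 1 symbol, 932 several and 9160 none, and 64 controls were left out. Each of 18193 genes was read by its brightest probe set over the 6 arrays.

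The genotypes were tested over all genes in R 4.3.3 with limma 3.58.1 (eBayes, two-sided), Benjamini-Hochberg adjustment and a threshold of 0.05. Genes given in full were the 2 of smallest p per role, those whose groups did not overlap, and Cd79a, Cd79b, Syk and Btk, with up to 2 of smallest p in each pathway list. Members and lists were chosen with earlier results of these data known. The mice are taken as independent; the number of arrays limits the precision, and p-values measure the spread between these arrays. On simulated data with 18193 genes, 200 of them changed, the steps recovered 5% of genes changed by 0.5, 78% at 1 and 99% at 2 on the log2 scale. There were 9.7 false calls on average. These shares hold for the simulated setting only: in the data Uchl1 itself, at a difference of 0.94, had a limma adjusted p of 0.638. The receptor genes, at -0.33 to 0.34, differed by less than any simulated effect. Alternatives were other probe set choices, normalizations, limma options, a dim filter (mean under 5.61), a replicate block, an erythroid covariate and leaving out each array. Figures were drawn with matplotlib 3.10.9.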

Additional observations from a re-analysis of the deposited data

How the results depend on the processing

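No gene of the list had an adjusted p under 0.05 under any alternative run, and the smallest was 0.183 (Shc1 with array weights). Over up to 15 alternatives 7 of the 35 genes kept their sign: Fyn, Ptprc, Bank1, Grb2, Shc1, Cblb and Hvcn1. The number of genes above 0 was 16 with array weights, 11 with the erythroid covariate and 12 to 31 when each array was left out. The median difference was -0.01, -0.12 and -0.07 to 0.17 in the same order. Non-overlapping groups numbered 5 without suffixed probe sets (9.46% of all genes), 5 with quantile normalization (10.6%) and 2 to 9 when each array was left out, where the share of all genes rose to 16.2% to 24.4%. That count was 9 without ImHABCL6/Uchl1 replicate 3 (16.3% of all genes), 6 without replicate 1 (24.4%), 5 without replicate 2 (21.7%), and 4 without control replicate 1 (18.1%) or 2 (16.6%). Genes at an unadjusted p under 0.05 numbered 4 without suffixed probe sets (4.94% of all genes), 4 with quantile normalization (5.06%), 4 with array weights (15.5%), 6 with the covariate (15.8%), 1 under the dim filter (5.88%), 0 with a trended robust prior (4.55%) and 0 to 3 when each array was left out. The latter was 3 without ImHABCL6/Uchl1 replicate 3 (4.33%), 0 without control replicate 2 (2.71%) and 1 without each other array (2.13% to 7.31%). The replicate numbers are not stated to pair mice and were not taken to do so. Same-numbered arrays deviated with correlations of 0.43, 0.19 and -0.26, and unlike-numbered arrays with -0.59 to 0.53. With 3 arrays per group these values cannot decide on pairing. With the replicate block, 1 gene had an unadjusted p under 0.05 (5.51% of all genes) and 0 an adjusted one. The calcineurin list's median was 0.13 with quantile normalization, 0.12 with array weights and -0.03 with the covariate. With the covariate the NF-kappaB list was at -0.10, other proximal regulators at -0.11, PI3-kinase at -0.01, RAS and MAP kinase at -0.20 and induced targets at -0.25. Other proximal regulators were at -0.01 with array weights and PI3-kinase at 0.16 with quantile normalization. The RAS and MAP kinase list was at 0.02 with the mean of probe sets, 0.06 with quantile normalization, 0.02 with median centring and 0.03 with array weights. When each array was left out, list medians ran NF-kappaB arm 0.01 to 0.21, PI3K arm 0.02 to 0.12, RAS and MAP kinase arm -0.12 to 0.09, calcineurin arm 0.01 to 0.19, immunoglobulin chains -0.29 to -0.05, other proximal regulators -0.15 to 0.21, receptor-induced target genes -0.06 to 0.23. The cause of these changes was not tested. The mean of all probe sets put Nfatc3 at 0.04, Orai1 at 0.02, Prkcd at 0.03, Ptpn6 at 0.06 and Vav2 at -0.03. Leaving out suffixed probe sets put Prkcd at 0.24 and Vav3 at -0.10. Quantile normalization put Cd79b at 0.01, Nfatc1 at 0.07, Nfatc3 at 0.04, Orai1 at 0.01 and Ptpn6 at 0.04. Median centring put Nfatc1 at 0.00, Orai1 at 0.02 and Ptpn6 at 0.01. Array weights put Blk at -0.10, Blnk at -0.01, Btk at -0.16, Cd22 at -0.14, Cd72 at -0.20, Cd79b at 0.01, Cd81 at -0.05, Csk at -0.14, Dapp1 at -0.09, Dok3 at -0.28, Itpr2 at -0.01, Nfatc1 at 0.10, Nfatc3 at 0.10, Orai1 at 0.24, Prkcb at 0.00, Rasgrp3 at -0.10, Syk at -0.10 and Vav1 at -0.01. The erythroid covariate put Blk at -0.09, Blnk at -0.24, Cd79a at -0.05, Cd81 at -0.12, Csk at -0.21, Dapp1 at -0.01, Dok3 at -0.24, Itpr2 at -0.40, Ms4a1 at -0.04, Plcg2 at -0.15, Rasgrp3 at -0.11, Syk at -0.22, Vav1 at -0.24, Vav2 at -0.40 and Vav3 at -0.07. Ranges over leaving out each array were Blk -0.04 to 0.18, Blnk -0.12 to 0.11, Btk -0.03 to 0.22, Cd79b -0.17 to 0.15, Cd81 -0.09 to 0.16, Csk -0.17 to 0.15, Dapp1 -0.03 to 0.20, Dok3 -0.16 to 0.25, Itpr2 -0.20 to 0.24, Lat2 -0.35 to 0.06, Ms4a1 -0.02 to 0.10, Nfatc1 -0.18 to 0.18, Nfatc3 -0.21 to 0.20, Orai1 -0.19 to 0.29, Plcg2 -0.04 to 0.22, Prkcd -0.31 to 0.02, Ptpn6 -0.33 to 0.16, Rasgrp3 -0.07 to 0.26, Sos1 -0.21 to 0.05, Stim1 -0.13 to 0.20, Syk -0.14 to 0.17, Vav1 -0.11 to 0.32, Vav2 -0.22 to 0.25, Vav3 -0.22 to 0.31, Cd79a 0.09 to 0.35, Fyn 0.13 to 0.64, Ptprc 0.01 to 0.20, Bank1 0.12 to 0.48, Grb2 0.17 to 0.36, Shc1 -0.37 to -0.29, Prkcb 0.07 to 0.41, Cd22 0.02 to 0.33, Cd72 0.04 to 0.60, Cblb 0.27 to 0.45, Hvcn1 0.14 to 0.31.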
